A study of Mus musculus with 4 samples.

Results

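Collagen chains are the single polypeptides from which collagens, the main structural proteins of the extracellular matrix, are assembled. They were taken here as every mouse gene whose symbol is Col, a number, the letter a and a second number. The reference held 44 such genes, and 43 of them were matched to at least 1 gene probe among the 36838 gene names on the array. Col12a1 was not matched and was not analysed here. The 43 chains had 63 probes in all. Of the 43 chains, 24 were detected on all 4 arrays, 9 on some and 10 on none, where detected means that over 50% of a probe's spots were well above background.

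Each collagen molecule is a triple helix of chains wound from Gly-X-Y repeats, and the chains that join decide what is built. Fibrillar chains form the banded fibrils of skin, tendon and bone, network chains form basement membranes and related sheets, and the fibril-associated (FACIT) chains sit on the surface of fibrils. Beaded chains make the collagen VI microfibrils that surround cells, and the remaining chains include anchoring fibrils, multiplexins and transmembrane collagens. Fibroblasts are the cells best known for making fibrillar and microfibrillar collagens.

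To examine the transcriptional effect of activators of chaperone-mediated autophagy (CMA), by which single proteins are taken into lysosomes, RNA was measured in NIH-3T3 cells, an established and immortalised line of mouse embryonic fibroblasts described as wild type in the labels. The groups were untreated cells and cells given 20 µM AR7, 20 µM CA39 or 20 µM CA77 and collected after 24 h. AR7 is the earlier compound, and CA39 and CA77 are analogues derived from it. All cultures were grown to confluence in medium with serum, the compounds were dissolved in DMSO, and the control was labelled as given nothing, so an effect of DMSO and of a compound cannot be told apart in a change shared by the treated cultures.

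Each group was 1 culture on 1 one-colour array, so no difference given here has a replicate check, no test was possible and no p-value is given. Values are normalized log2 intensities, and a difference is the treated array minus the untreated array, which all 3 comparisons share. The only measured error came from probes printed 10 times on each array. It gave a tolerance of 0.16 on the log2 scale (1.12-fold), used as a yardstick for the difference between 2 arrays. It rests on the spread of spots at different places within an array and does not cover the spread between cultures. Spot differences shared by the arrays are counted in it. For the Col4a1 probe the SD was 0.13 to 0.15 over spots but 0.04 to 0.05 for differences taken spot by spot. A difference within the tolerance is therefore not shown to be absent. A gene was called past 2-fold when its log2 difference was at least 1 in size. In bulk RNA, fewer cells that express a chain and less of its RNA per cell cannot be told apart.

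The arrays lay on 1 slide. Row 1 held the untreated array and row 2 the others, which means that an effect of slide row cannot be told apart from one of treatment. CA77 was read in scan 2 and the other arrays in scan 1. Between 53.27% and 70.22% of spots were well above background, with the highest share on the untreated array, and the median net signal lay between 138 and 167.5 scanner units.

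With CA39, most of the chains that build fibrils and collagen VI microfibrils were higher than in untreated cells, while Col5a3, Col8a1 and Col18a1 were lower. With AR7 and CA77, most of the same fibril and microfibril chains were lower than in untreated cells, by less than 2-fold in all but 1 case. The basement membrane chains Col4a1 and Col4a2 differed from the untreated array by at most 0.25 on the log2 scale with any compound.

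With CA39, 4 of 32 compared chains were past 2-fold higher (Col1a1, Col5a2, Col6a3 and Col6a6), against 3.74% of all genes compared. Col6a6 was compared only because the CA39 array detected it, and its difference is a lower bound. Among the 24 chains detected on all arrays, 3 were past 2-fold higher (2.21% of the genes detected on all arrays). Of the 32 chains, 2 were past 2-fold lower (Col5a3 and Col8a1), against 1.17% of all genes. With AR7, 0 of 31 chains were past 2-fold higher (1.83% of all genes) and 1 was past 2-fold lower, Col1a1 (0.395% of all genes). With CA77, 0 of 32 chains were past 2-fold higher (1.96% of all genes) and 0 were lower (0.548% of all genes). These counts rest on a fixed fold and on 1 array per group, and no test of them was made.

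Smaller differences were more common. Relative to the tolerance, 16 of 31 chains were lower with AR7 (51.6%, against 17.6% of all genes compared) and 4 were higher (12.9%, against 14.9%). With CA77, 20 of 32 were lower (62.5%, against 25.6% of all genes) and 6 were higher (18.8%, against 19.4%). With CA39 the direction was the other one, since 14 of 32 were higher (43.8%, against 20.9% of all genes) and 6 were lower (18.8%, against 27.2%). The median log2 difference over the compared chains was -0.19 (AR7), 0.08 (CA39) and -0.22 (CA77), beside medians of 0.0, 0.0 and -0.01 over all genes compared. Over the 24 chains detected on all arrays the medians were -0.29, 0.24 and -0.26, and over the 20594 genes detected on all arrays they were -0.01, -0.04 and -0.02.

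**Figure D1:**
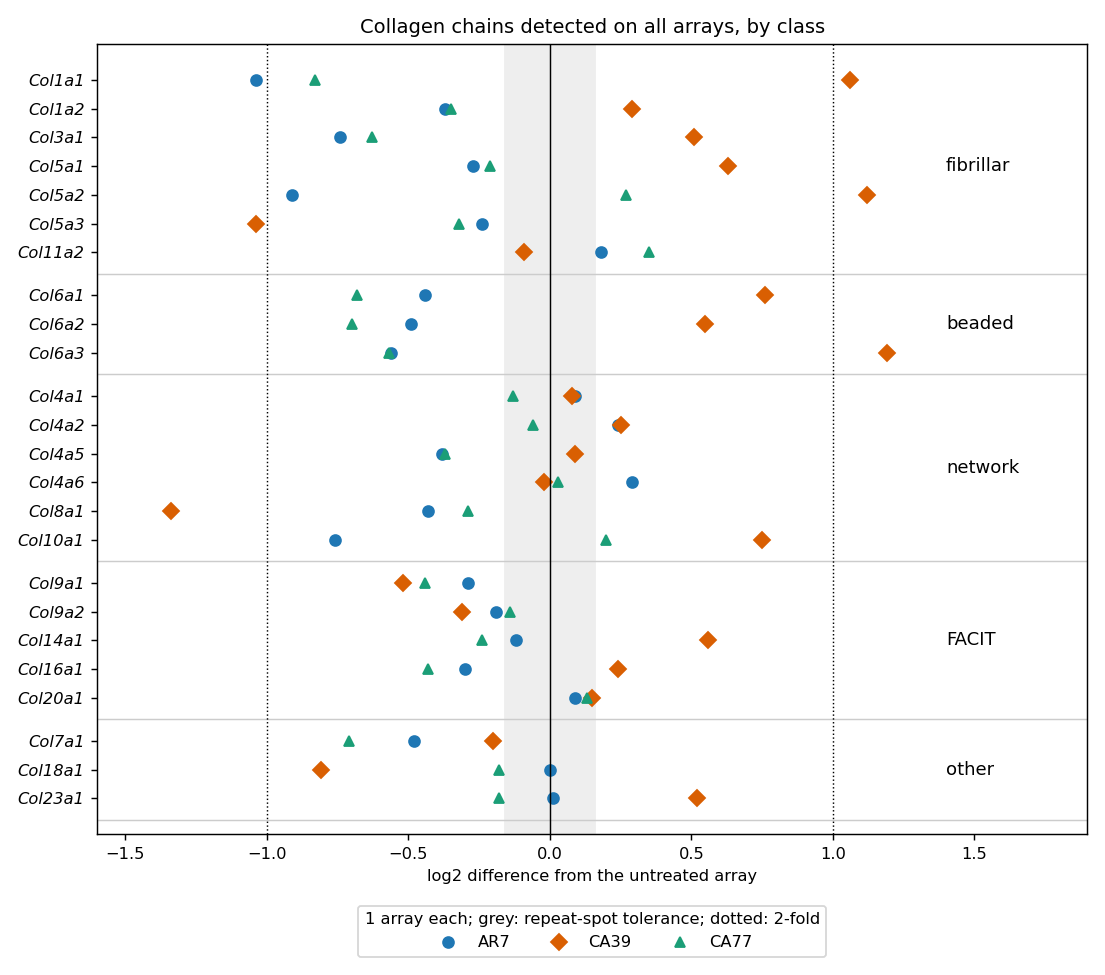
Log2 difference from the untreated array (x axis) of the 24 collagen chains detected on all arrays (y axis), grouped by class, with 1 point per chain and compound, a grey band for the repeat-spot tolerance of 0.16 and dotted lines at 2-fold. The CA39 points of the beaded chains and of most fibrillar chains lie right of 0 and those of AR7 and CA77 left of it, while Col5a3, Col8a1 and Col18a1 have their CA39 point farthest left.

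Read array by array, the CA39 array held the highest value, by more than the tolerance over the next array, for 12 of the 24 chains (50%, beside 15.1% of all genes detected on all arrays). Those 12 were Col1a1, Col1a2, Col3a1, Col5a1, Col5a2, Col6a1, Col6a2, Col6a3, Col10a1, Col14a1, Col16a1 and Col23a1. The same array held the lowest value for 3 chains (12.5%, beside 17.0% of all genes), which were Col5a3, Col8a1 and Col18a1. The untreated array held the highest value for 4 chains, namely Col5a3, Col7a1, Col8a1 and Col9a1 (16.7%, beside 8.02% of all genes), and the lowest for 0 (beside 3.69% of all genes).

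**Figure D2:**
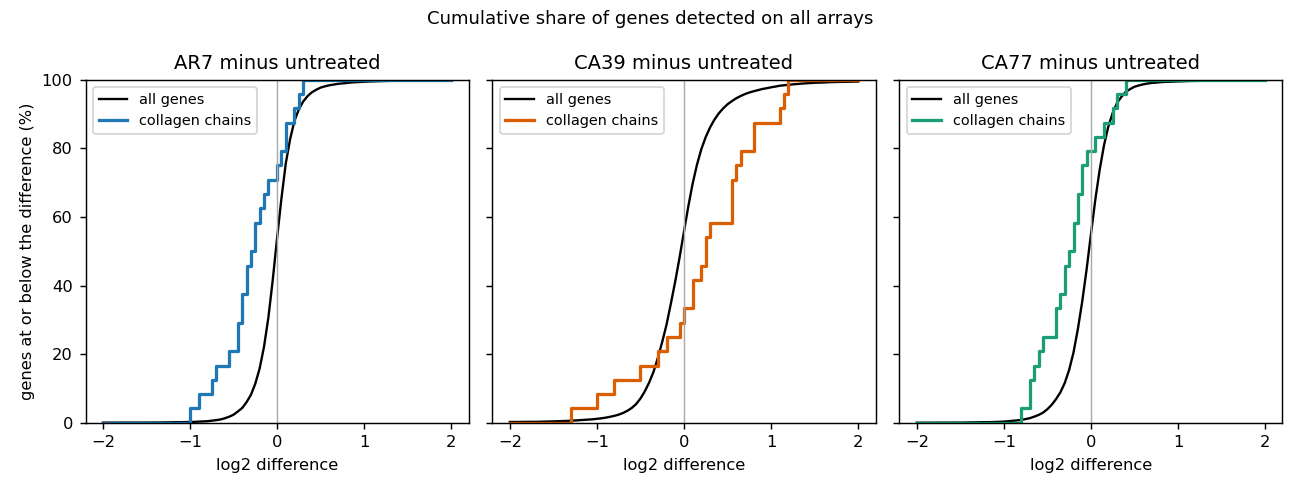
Cumulative share in percent (y axis) of genes at or below a given log2 difference from the untreated array (x axis), for the 24 collagen chains (coloured steps) and the 20594 genes detected on all arrays (black line), with 1 panel per compound. The chain line lies left of the line for all genes over most of its range with AR7 and CA77, and right of it over the upper part of the range with CA39, where it lies left of that line between about -1.3 and -0.3.

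Among the fibrillar chains, 7 of 11 were detected on all arrays, with median differences of -0.37 (AR7), 0.51 (CA39) and -0.32 (CA77). Type I collagen, the main fibril of skin, bone and tendon, is built from the products of Col1a1 and Col1a2. Col1a1 had a log2 intensity of 15.59 on the untreated array, 14.55 with AR7, 16.65 with CA39 and 14.77 with CA77. It was thus lower with AR7 and CA77 and higher with CA39. The folds were 2.06-fold lower with AR7, 2.08-fold higher with CA39 and 1.77-fold lower with CA77. The AR7 and CA39 values lay just past 2-fold, within the tolerance of that line, and with each array scaled to its 75th percentile the CA39 difference was 0.93 from the scanner software's processed signal and 0.92 from the deposited series table, below 2-fold in both.

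Col1a2 gave 18.27 on the untreated array, 17.89 with AR7, 18.56 with CA39 and 17.92 with CA77. Its order of the arrays was that of Col1a1 with a narrower range, since its differences were -0.37, 0.29 and -0.35 where those of Col1a1 were -1.04, 1.06 and -0.83. The AR7 and CA77 arrays differed by 0.03, which is within the tolerance. The CA39 difference of Col1a2 also fell within it, at 0.13 and 0.14, with the processed signal and the series table scaled to the 75th percentile. The 250 bases before the start of Col1a2 are shown as those of a type I collagen chain, whose levels differed between arrays beyond the tolerance. They come from RefSeq (GRCm38.p6), written 5' to 3', with capitals marking a CCAAT box and the GC box GGGCGG on either strand:
Col1a2, chr6:4505368-4505617, plus strand: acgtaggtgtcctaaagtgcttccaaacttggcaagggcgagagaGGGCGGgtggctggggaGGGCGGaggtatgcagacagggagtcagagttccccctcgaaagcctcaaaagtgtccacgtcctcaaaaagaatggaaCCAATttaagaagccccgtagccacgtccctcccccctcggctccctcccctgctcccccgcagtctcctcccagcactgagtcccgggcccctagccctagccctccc

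Col3a1, the chain of type III collagen, which accompanies type I in skin and vessel walls, gave 8.51, 7.77, 9.02 and 7.88 on the untreated, AR7, CA39 and CA77 arrays. It was highest with CA39, at 1.42-fold over untreated, and lower than untreated with AR7 (1.67-fold) and CA77 (1.55-fold). The AR7 and CA77 values lay within 0.11 of each other, less than the tolerance.

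Type V collagen is a minor partner of type I that nucleates fibrils and limits their width, and its chains did not share a direction. Col5a1 gave 13.39 on the untreated array, 13.12 with AR7, 14.02 with CA39 and 13.18 with CA77. Col5a2 gave 9.38, 8.47, 10.50 and 9.65 on the same arrays. Both were highest with CA39, at 1.55-fold over untreated for Col5a1 and 2.17-fold for Col5a2, and Col5a2 was also above untreated with CA77 (0.27) where Col5a1 was below it (-0.21).

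Col5a3, which codes for the less widespread of the type V chains, was lowest on the array where the other type V chains were highest. It gave 11.00 on the untreated array, 10.76 with AR7, 9.97 with CA39 and 10.68 with CA77. CA39 was lowest, 2.05-fold below untreated, and the differences with AR7 (-0.24) and CA77 (-0.32) were also negative but smaller. The bases before its start are shown as those of the 1 fibrillar chain that was lower with CA39 beyond the tolerance, from the same RefSeq assembly and with capitals as above:
Col5a3, chr9:20815068-20815317, minus strand: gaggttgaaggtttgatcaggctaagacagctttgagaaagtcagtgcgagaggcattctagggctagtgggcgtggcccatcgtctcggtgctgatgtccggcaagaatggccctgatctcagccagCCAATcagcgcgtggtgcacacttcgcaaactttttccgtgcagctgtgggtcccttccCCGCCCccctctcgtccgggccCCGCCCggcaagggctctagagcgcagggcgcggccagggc

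**Figure D3:**
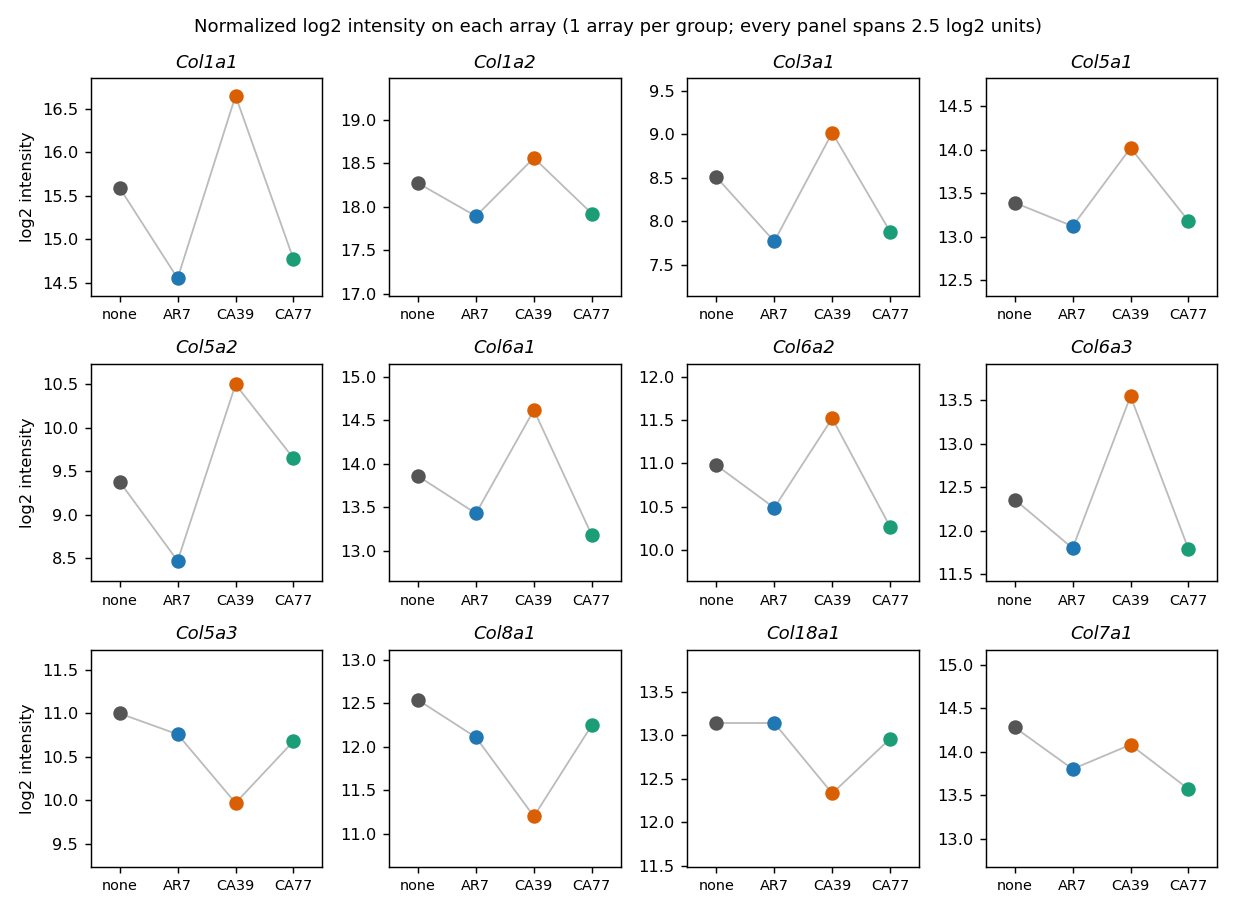
Normalized log2 intensity (y axis, log2 units) on the untreated (none), AR7, CA39 and CA77 arrays (x axis) for 12 collagen chains, with 1 point per array, lines only to guide the eye and 2.5 log2 units in every panel. The 8 panels of the upper and middle rows peak at CA39, while Col5a3, Col8a1 and Col18a1 have their lowest point there and Col7a1 is highest in untreated cells.

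Col11a2, a chain of the thin fibrils of cartilage, gave 7.99, 8.17, 7.90 and 8.34 on the untreated, AR7, CA39 and CA77 arrays. It was the 1 fibrillar chain whose CA39 difference (-0.09) lay within the tolerance, and it was highest with CA77 (0.35). Col2a1, the chain of the main cartilage fibril, was detected on the untreated array alone, at 6.69, near the limit of detection. Col11a1, Col24a1 and Col27a1 were detected on no array.

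The 3 beaded chains detected on all arrays shared a direction with each compound. Col6a1, Col6a2 and Col6a3 code for the chains that assemble into the common form of collagen VI, and all were highest with CA39 and lower than untreated with AR7 and CA77. Their differences ran from 0.55 to 1.19 with CA39, from -0.56 to -0.44 with AR7 and from -0.70 to -0.57 with CA77. The class medians were 0.76, -0.49 and -0.68.

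Col6a1 gave 13.86 on the untreated array, 13.43 with AR7, 14.62 with CA39 and 13.18 with CA77. Col6a2 gave 10.98, 10.49, 11.52 and 10.27 on the same arrays. Both had their lowest value with CA77, where CA77 minus AR7 was -0.25 for Col6a1 and -0.21 for Col6a2.

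Col6a3, the longest of these chains, gave 12.36 on the untreated array, 11.80 with AR7, 13.55 with CA39 and 11.79 with CA77. It was 2.28-fold over untreated with CA39, and its AR7 and CA77 values were 0.01 apart.

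The bases before the starts of these chains are shown because the 3 chains had the same direction with every compound. Capitals mark the TATA box TATAAA, the CCAAT box, the GC box GGGCGG, the AP-1 element TGANTCA and the nuclear receptor half-site AGGTCA on either strand, so that a sequence without capitals holds none of these letters. Col6a2 had more than 1 RefSeq start, and the window of the start farther downstream is given:
Col6a1, chr10:76726045-76726294, minus strand: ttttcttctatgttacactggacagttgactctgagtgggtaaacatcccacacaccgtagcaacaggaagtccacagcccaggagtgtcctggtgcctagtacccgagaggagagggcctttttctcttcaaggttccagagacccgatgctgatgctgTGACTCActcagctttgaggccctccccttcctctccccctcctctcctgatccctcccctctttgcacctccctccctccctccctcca
Col6a2, chr10:76623405-76623654, minus strand: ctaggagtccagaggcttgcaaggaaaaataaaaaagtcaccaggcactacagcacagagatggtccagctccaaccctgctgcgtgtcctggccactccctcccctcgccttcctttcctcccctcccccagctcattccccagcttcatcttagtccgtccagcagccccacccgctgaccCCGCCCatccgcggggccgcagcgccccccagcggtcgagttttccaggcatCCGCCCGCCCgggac
Col6a3, chr1:90843972-90844221, minus strand: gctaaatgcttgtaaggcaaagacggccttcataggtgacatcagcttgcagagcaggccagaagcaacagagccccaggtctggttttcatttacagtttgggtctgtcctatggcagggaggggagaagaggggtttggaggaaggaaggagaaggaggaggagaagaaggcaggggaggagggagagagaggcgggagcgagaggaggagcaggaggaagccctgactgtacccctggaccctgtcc
In these windows Col6a1 held the letters of the AP-1 element, Col6a2 held GC boxes on the strand opposite to the printed one, and Col6a3 held none of the motifs. A match describes the letters and is no evidence of binding.

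The other beaded chains can replace the Col6a3 product in collagen VI. Col6a6 was detected with CA39 alone, at a log2 intensity of 8.62, beside 4.83 on the untreated array, 5.86 with AR7 and 5.56 with CA77, none of which was well above background. It was at least 6.94-fold higher with CA39 than on the untreated array, where the untreated side was raised to the 1st percentile of detected signal (5.83). A second probe of Col6a6 was detected on no array and reached 5.25 with CA39, so the call rests on 1 of its 2 probes. Col6a4 was detected on the untreated array alone, at 6.60, and Col6a5 on none.

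Among the network chains, Col4a1 and Col4a2 code for the partners of the most widespread basement membrane collagen. Col4a1 was printed in 10 spots on each array and so carries its own error. Its mean was 13.92 ± 0.14 on the untreated array, 14.00 ± 0.15 under AR7, 13.99 ± 0.13 under CA39 and 13.78 ± 0.14 under CA77 (SD over 10 spots of 1 array). Taken spot by spot, the difference from untreated was 0.09 ± 0.04 (AR7), 0.08 ± 0.04 (CA39) and -0.13 ± 0.05 (CA77). Every spot was higher with AR7 (from 0.03 to 0.17) and with CA39 (from 0.02 to 0.15), and every spot was lower with CA77 (from -0.24 to -0.08). These shifts were the same way at all spots of an array and were still below the tolerance for a single array pair.

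**Figure D4:**
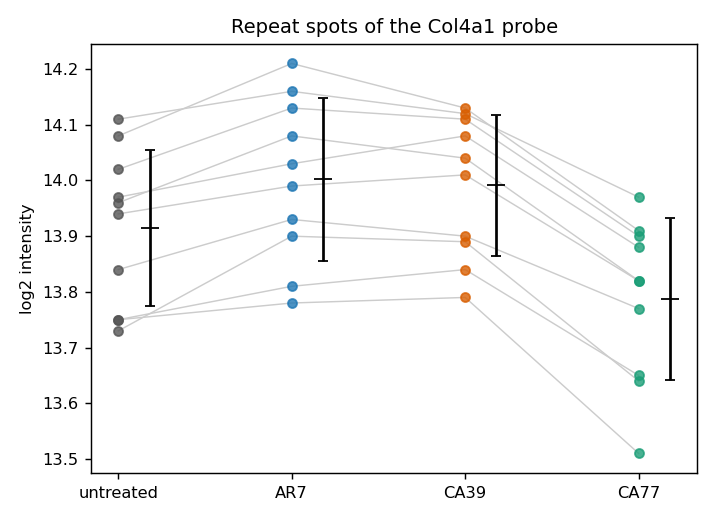
Normalized log2 intensity (y axis) of the 10 repeat spots of the Col4a1 probe on each of the 4 arrays (x axis), with grey lines joining the same spot and black bars giving the mean ± SD over the spots. A spot that is bright on the untreated array tends to be bright on the others, and the CA77 spots, from 13.51 to 13.97, lie lowest.

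Col4a2 gave 13.19, 13.43, 13.43 and 13.13 on the untreated, AR7, CA39 and CA77 arrays, so it was slightly higher with AR7 (0.24) and CA39 (0.25) and within the tolerance with CA77 (-0.06). The genes of Col4a1 and Col4a2 lie head to head on chromosome 8 of GRCm38.p6, on opposite strands.

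Col4a5 and Col4a6, a second head-to-head pair of basement membrane chains, did not have the same order. Col4a5 gave 12.61, 12.23, 12.70 and 12.24 on the untreated, AR7, CA39 and CA77 arrays, lower with AR7 and CA77 and within the tolerance with CA39. With the median of the neighbouring spots subtracted, its differences were -0.10, 0.31 and -0.14 with AR7, CA39 and CA77, so that the AR7 and CA77 differences fell within the tolerance and the CA39 difference left it. Col4a6 gave 9.76, 10.06, 9.74 and 9.79, higher with AR7 alone (0.29). A second Col4a6 probe, dimmer and not detected with AR7, was 0.43 higher with CA39, so the probes of this chain disagree on that compound.

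Col8a1, a short chain that forms hexagonal lattices beneath endothelia and is made by vascular and mesenchymal cells, had the most negative difference of any chain in the comparisons with untreated cells (-1.34, with CA39). It gave 12.54 on the untreated array, 12.11 with AR7, 11.20 with CA39 and 12.25 with CA77. CA39 was lowest, 2.53-fold below untreated, and AR7 (1.34-fold) and CA77 (1.22-fold) were also below it. Its promoter window is shown for that reason, from the same assembly and with capitals as above:
Col8a1, chr16:57754738-57754987, minus strand: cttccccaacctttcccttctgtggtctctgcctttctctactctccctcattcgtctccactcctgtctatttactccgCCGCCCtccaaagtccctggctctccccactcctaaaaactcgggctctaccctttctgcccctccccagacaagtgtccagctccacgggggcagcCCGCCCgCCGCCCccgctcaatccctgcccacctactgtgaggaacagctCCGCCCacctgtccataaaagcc
The capitals in this window are all GC boxes on the strand opposite to the printed one.

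Col10a1, the chain of hypertrophic cartilage, gave 7.69, 6.94, 8.44 and 7.89 on the untreated, AR7, CA39 and CA77 arrays. It was 1.68-fold higher with CA39 and 1.69-fold lower with AR7, and the AR7 difference was -1.18 with the quantile normalized processed signal and -0.57 with a background offset of 50, so its size is uncertain. Col8a2, the partner of Col8a1, was detected on the untreated and CA77 arrays (6.77 and 6.57). Col4a4, a chain of the kidney's filter membrane, was detected on the same arrays (6.69 and 6.86), and its usual partner Col4a3 on none. A second Col4a4 probe gave 6.83 and 6.36 there, so its probes disagree on the direction with CA77. The median of the 6 network chains detected on all arrays was -0.15 (AR7), 0.08 on CA39 and -0.09 on CA77.

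The FACIT chains showed small differences, with medians of -0.19, 0.15 and -0.24 over 5 chains. Col14a1, which coats type I fibrils, gave 7.58, 7.46, 8.14 and 7.34 on the untreated, AR7, CA39 and CA77 arrays and was 1.48-fold higher with CA39. Col16a1, a chain found near fibrillin and thin fibrils, gave 14.80, 14.50, 15.04 and 14.36. Both were highest with CA39 and below untreated with CA77. Of the other 2 probes of Col16a1, 1 gave 0.07 and 1 gave 0.20 with CA39, beside 0.24 for the probe used, so its CA39 difference is within the tolerance on 1 of 3 probes.

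Col9a1 and Col9a2 code for chains of the collagen that coats cartilage fibrils. Col9a1 gave 7.63, 7.35, 7.11 and 7.19 on the untreated, AR7, CA39 and CA77 arrays, and Col9a2 gave 8.15, 7.95, 7.84 and 8.01. Both had their highest value in untreated cells, which for Col9a2 lay within the tolerance of CA77, and their lowest with CA39, 1.43-fold below untreated for Col9a1 and 1.24-fold for Col9a2. That lowest value lay within the tolerance of CA77 for Col9a1 and of AR7 for Col9a2. With the local median subtracted, the CA39 difference of Col9a2 was -0.13, within the tolerance. Col20a1 gave 10.82, 10.91, 10.97 and 10.95, within the tolerance for every compound, while its second probe differed by 0.26 with AR7. Col22a1, a chain of tissue junctions, was detected on the untreated array alone (5.80), and Col9a3 and Col19a1 on none.

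Of the chains outside these classes, Col7a1 builds the anchoring fibrils that fasten the epidermis to the dermis. It gave 14.28 on the untreated array, 13.80 with AR7, 14.08 with CA39 and 13.57 with CA77. It was highest in untreated cells and 1.63-fold lower with CA77.

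Col18a1, a basement membrane collagen whose end fragment is endostatin, gave 13.14 on the untreated array, 13.14 with AR7, 12.33 with CA39 and 12.96 with CA77. It was lowest with CA39, 1.75-fold below untreated, and level with untreated on the AR7 array. A second probe of Col18a1 gave -0.10 with AR7, -0.70 with CA39 and -0.10 with CA77, within the tolerance of the first in each comparison. Col23a1, a transmembrane collagen, gave 6.88, 6.89, 7.40 and 6.70 and was 1.43-fold higher with CA39, with every value close to the limit of detection.

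Col25a1, a transmembrane collagen of neurons and developing muscle, was detected on the untreated (6.80), AR7 (7.09) and CA77 (7.24) arrays. Col15a1, a basement membrane relative of Col18a1, was detected on the untreated array (6.75), and Col17a1, a hemidesmosome collagen of epithelia, with CA77 (6.29). These chains lay near the limit of detection, where the share of probes detected also differed between arrays, and that part in their calls was not tested. Col13a1, Col26a1 and Col28a1 were detected on no array.

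The compounds were also compared with each other at the matched dose of 20 µM and time of 24 h, in 3 pairs, with 1 array each and therefore no test or adjusted p-value. CA39 over AR7 put 8 of 26 compared chains past 2-fold, all of them higher with CA39 (6.19% of all genes compared were past 2-fold in either direction). They were Col1a1, Col3a1, Col5a2, Col6a1, Col6a2, Col6a3, Col6a6 and Col10a1. Col6a6 was compared only through the CA39 array. Among the chains detected on all arrays 7 were past 2-fold (4.27% of the genes detected on all arrays). The largest measured differences were 2.10 for Col1a1, 2.03 for Col5a2 and 1.75 for Col6a3.

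CA39 over CA77 put 7 of 29 chains past 2-fold (6.27% of all genes compared). Higher with CA39 were Col1a1 (1.88), Col3a1 (1.14), Col6a1 (1.45), Col6a2 (1.25), Col6a3 (1.75) and Col6a6 (at least 2.40), and lower was Col8a1 (-1.05). Without Col6a6, among the chains detected on all arrays, 6 were past 2-fold (4.34% of the genes detected on all arrays). CA77 over AR7 put 1 of 28 chains past 2-fold, Col5a2 at 1.18 (2.62% of all genes compared). Col10a1 came next in that pair, at 0.96. The median difference over the chains was 0.49 for CA39 over AR7, 0.46 for CA39 over CA77 and 0.0 for CA77 over AR7.

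A promoter window was matched for 35 of the 44 chains. The GC box GGGCGG was found in the 250 bases before a start in 21 chains (60.0%), against 35.4% of 27025 genes with a window, and AGGTCA in 8 (22.9%, against 15.8%). TATAAA was found in 5 (14.3%, against 14.3%), CCAAT in 13 (37.1%, against 37.5%) and TGANTCA in 1, Col6a1 (2.86%, against 7.82%). The windows of the chains were also richer in G and C, with a median of 59.0% against 52.4% over all windows. All motifs were searched on both strands, matches of different motifs may overlap, and these shares are descriptions with no test.

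The chains are modified, trimmed, crosslinked and bound by other proteins, of which a list of 37 genes was followed. Of these 36 had a probe and 32 were compared. With AR7, 0 were past 2-fold higher (1.83% of all genes) or lower (0.395%). With CA77, 0 were past 2-fold higher (1.96%) or lower (0.548%), and with CA39 4 were past 2-fold higher (3.74% of all genes) and 0 lower (1.17% of all genes). The list medians were -0.08 (AR7), 0.25 (CA39) and -0.11 (CA77).

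The 4 were P4ha2, a prolyl 4-hydroxylase subunit (9.21, 9.22, 12.80 and 9.23 on the untreated, AR7, CA39 and CA77 arrays), P3h3, a prolyl 3-hydroxylase family member (6.58, 6.31, 10.04 and 6.25, not detected on 1 of the 4), Adamts2, a protease that removes the amino propeptide of fibrillar collagens (9.91, 9.49, 13.58 and 9.60), and Lox, the crosslinking lysyl oxidase (14.60, 14.08, 15.89 and 13.98). Each was higher on the CA39 array than on any other. By contrast Serpinh1, the collagen chaperone HSP47, gave 15.84, 15.36, 15.85 and 15.56, level with untreated under CA39 and lower with AR7 (a difference of -0.48). P4hb, the shared beta subunit of prolyl 4-hydroxylase, differed by -0.16, 0.38 and -0.05 with AR7, CA39 and CA77. The collagen receptors Itgb1 (-0.26, 0.34 and -0.22) and Ddr2 (-0.05, 0.12 and -0.18) are given for the same arrays. Of 6 compared receptor genes, 1 was past 1.5-fold higher with CA39 (6.94% of all genes), Itga11 at 0.78, which was named after its value was seen. Itga11 was dim, at 6.18 on the untreated array and 6.96 with CA39, and was not detected with AR7. Over the whole list, 6 genes were past 1.5-fold higher with CA39 and 2 lower (3.99% of all genes). The 2 were Adamts14 (-0.86) and Tll1 (-0.66), also named after their values were seen.

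Markers of the cell type were read beside these results. Of 8 fibroblast markers, 7 were detected on every array and the eighth, Pdgfrb, with CA39 alone. With CA39, 3 of the 8 were past 2-fold higher (3.74% of all genes), namely Pdgfra (1.19), Fn1 (1.47) and Pdgfrb (at least 2.94). The others differed by 0.58 (Thy1), 0.20 (Vim), 0.11 (Sparc), -0.01 (S100a6) and -0.22 (S100a4). The CA39 median over the 8 was 0.39, which includes Pdgfrb, compared only because the CA39 array detected it. With AR7 and CA77 the medians were -0.19 and -0.14 over the 7 others, so the medians do not cover the same markers. The summed linear level of the fibroblast list was 1230000.0 with CA39 and between 932000.0 and 1060000.0 on the other arrays.

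Some markers of other cell types moved with CA39 as well. Of 5 epithelial markers 4 were detected there and 3 on each other array, Krt8 was higher (2.39) as was Epcam (at least 1.69), and the summed level of the list was 1710.0 against 479.0 to 574.0, with the defining marker Cdh1 not detected on any array. The chondrocyte marker Sox9 was higher by 0.99 while Acan differed by -0.26, with Matn1 and Hapln1 not detected, and 2 of 4 chondrocyte markers were detected on every array, with summed levels of 11500.0 with CA39 and 4760.0 to 5950.0 otherwise. Acta2, a myofibroblast marker, differed by -0.93 (AR7), 0.37 on the CA39 array and -1.03 (CA77), in a list of 3 with all members detected and summed levels from 1970.0 to 2510.0. The others did not follow it, since Tagln differed by 0.15, -0.39 and -0.27 and Cnn1 by 0.31, 0.0 and 0.20 on the same arrays. The other lists were endothelial markers (3 of 4 detected on every array, Tie1 on none, summed levels 3830.0 to 4330.0), leukocyte markers (2 or 3 of the 3 with a probe, 5480.0 to 7330.0) and osteoblast markers (2 of the 3 with a probe, Ibsp on none, 938.0 to 1600.0). The part of these differences in the collagen values was not tested.

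Counts over all genes differed between regions of the array, which hold different probes. With AR7, 3.59% of genes in grid rows 1 to 160 were past 2-fold higher and 0.601% in the rows over 160, and the part of position in this was not tested. For the chains detected on all arrays, the median difference in the first and in the second region was -0.27 and -0.40 under AR7, 0.29 and 0.04 under CA39, and -0.24 and -0.33 under CA77, over 13 and 10 chains, without Col4a1, whose spots lie in both. The median difference of the spots around each chain ran from -0.28 to 0.10 with AR7, from -0.21 to 0.03 with CA39 and from -0.23 to 0.17 with CA77. With that local median subtracted, Col1a1, Col5a2, Col5a3, Col6a3 and Col8a1 all remained past 2-fold with CA39.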

How the data were processed

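RNA of 4 NIH-3T3 cultures, 1 per group, was labelled with Cy3 and hybridised to 4 one-colour Agilent arrays. Groups came from the treatment given in the labels. The authors scanned the slide and extracted spots with Agilent Feature Extraction 10.7.3.1, and deposited linear spot intensities together with the local background and the quality marks of each spot. The deposited series table held the background-subtracted intensity of the same 62976 spots per array, without scaling or log transformation. The study's methods name RMA values, which were not used here.

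In R 4.3.3, limma 3.58.1 corrected the median spot intensity for background (normal-exponential model, no offset). Control spots were dropped, arrays were quantile normalized, values were put on the log2 scale, and spots that the software had marked non-uniform or outlying were removed. The spots of a probe were averaged, and the probe with the highest mean stood for its gene. Accessions were matched to RefSeq symbols of GRCm38.p6, which named 27512 of 55378 probes. The array design cites an earlier build, so positions are given only for promoter windows, in GRCm38.p6.

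Values not well above background took the 1st percentile of their array's detected signal (log2 5.83 for untreated, 6.80 for AR7, 6.85 for CA39 and 6.22 for CA77), or their own value where that was larger, so folds against them are lower bounds. Where the larger side was the undetected one the difference was put at 0, and a gene detected on neither array was not compared. The number of arrays limits the precision. The tolerance of 0.16 is the square root of 2 times the median SD (0.09 to 0.12 per array) of 399 probes printed 10 times. All chains detected on at least 1 array are named with values. Of the other genes of the pathway, Serpinh1, P4hb, Lox, Itgb1, Ddr2 and those past 2-fold are named. Itga11, Adamts14 and Tll1 were added after their values were seen. The members, classes and lists were chosen with earlier results of these data known. Alternatives covered background correction, normalization, the filter and floor for dim probes, spot marks, choice of probe, position and threshold. The procedure was tested on simulated data.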

Additional observations from a re-analysis of the deposited data

How the results depend on the processing

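Of 759 recomputed chain differences 733 stayed within the tolerance of their value and 26 moved by more, and of 159 class medians 156 stayed. A sign changed in 5 of the chain differences, for Col4a1 and Col11a2 with CA39 and Col4a6 with CA39 and CA77, all at most 0.09 in size as reported, and the network median with AR7 was 0.01 after subtraction of the local median (-0.15 as reported). Among the chains detected on all arrays, none past 2-fold changed sign. Of 57 differences of these chains past the tolerance, 13 lay within it under at least 1 alternative, all at most 0.38 in size as reported. The calls against untreated cells rested on few chains near the threshold. Lower than untreated with AR7 were 3 chains with the processed signal under either scaling and with the deposited series table (0.692%, 0.664% and 0.707% of all genes), 2 after subtraction of the local median, and 4 at 1.5-fold (1.48% of all genes), beside 1 as reported. The share of all genes after subtraction of the local median was not computed, so that count has no background beside it. The chains that joined Col1a1 at 2-fold were Col5a2 and Col10a1 in the first 3 settings and Col5a2 in the fourth. CA77 over AR7 gave 2 chains under these same settings (4.2%, 4.24% and 4.34% of all genes in the first 3). It also gave 2 at 1.5-fold (4.78% of all genes) and 0 in grid rows over 160 (0.646% of all genes there). With the processed signal quantile normalized, 1 chain was higher with CA77 (3.61% of all genes).

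At 1.5-fold, 7 chains were higher with CA39 (6.94% of all genes) and 5 lower with CA77 (2.77%). CA39 over AR7 gave 14 (8.08% of all genes higher and 6.23% lower) and CA39 over CA77 gave 15 (8.06% and 5.22%). In grid rows over 160 alone, which leave fewer chains, CA39 gave 2 higher (2.63% of all genes there) and 1 lower (1.24%), CA39 over AR7 and over CA77 gave 4 each (4.57% and 4.51%), the AR7 median over all compared chains, undetected sides included, was 0.0 and the AR7 network median was -0.40. Without floor or filter, 7 chains were higher with CA39 (3.99% of all genes), 1 was higher with AR7 (2.51%) and 1 lower with CA77 (1.20%), and 1 pathway gene was higher with AR7. The CA77 FACIT median was -0.43 with the series table and the CA39 beaded median 0.57 with the processed signal scaled to the 75th percentile. Pathway genes lower with CA39 numbered 2 at 1.5-fold (3.99% of all genes) and 1 with the series table (2.10%), and 1 was lower with CA77 at 1.5-fold (2.77%). Beyond the smaller number of chains in the grid rows and the lower threshold, the cause was not tested.

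No paired analysis was possible because each group holds 1 array. Without replicate cultures, no difference can be set against the spread between cultures, and chains near the limit of detection, among them Col23a1, Col10a1 and Col9a1, carry the least certain values.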
